A study of Mus musculus with 18 samples.

Results

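The experiment described here removed Wnt5a from the lung epithelium of mouse embryos with Sox9-Cre and compared whole lungs at embryonic day E13.5 by bulk RNA-Seq. Its 6 libraries, of 18 in the series, were taken as the 3 mutant and the 3 control libraries deposited together in a single table. The mutants were Wnt5af/f; Sox9Cre and the controls Wnt5af/+; Sox9Cre, so that every embryo carried Sox9Cre and the controls had already lost the function of a single Wnt5a allele wherever the Cre was active. Sox9-Cre is a knock-in at Sox9, which is expressed in the distal epithelial tips of the lung and also in the cartilage of the airways, and the study placed its onset in the lung after branching had begun. Neither the labels nor the methods state how many lungs went into a library. A second experiment of the series, with Wnt5a removed from the mesenchyme by Dermo1Cre at E12.5 (3 mutants, Wnt5af/f; Dermo1Cre, and 3 controls, Wnt5af/+; Dermo1Cre), was used only to ask where the epithelial deletion differed from it. The question put to the comparison was which genes of the lung change when the epithelium cannot make WNT5A.

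WNT5A is a secreted Wnt ligand that acts mainly outside the beta-catenin pathway. It binds Frizzled receptors with the co-receptors ROR1, ROR2 and RYK, and it feeds into planar cell polarity, the system of VANGL, CELSR, PRICKLE and Dishevelled proteins that orients cells within a tissue. In the branching lung, the epithelial tips carry Sox9, the tip and the surrounding mesenchyme exchange Fgf10, Shh and Bmp4 signals, and the pleural surface is covered by mesothelium.

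The libraries held 16198295 to 16318036 reads on genes, and 14293 of the 23420 genes listed had at least 10 normalized counts (reads divided by the size factor of the library) in at least 3 of them. The labelled tissue was borne out by its defining marker, since Nkx2-1, the transcription factor of lung epithelium, stood at 2100.4 to 2608 normalized counts in every library. The libraries did not hold embryos of the same sexes. All 3 controls had both Xist, the RNA of the inactive X chromosome (4861 to 12684 normalized counts), and reads of 4 Y-linked genes (summed to 871 to 2704). Mutants 1 and 3 had Xist at 12978 and 25119 with Y-linked sums of 0.976 and 2.05, and mutant 2 had Xist at 17.1 with a Y-linked sum of 3955. The controls therefore contained RNA of both sexes, mutants 1 and 3 female RNA and mutant 2 male RNA. The libraries also differed in how the level of a gene followed its exon length: across 13418 genes with a length, the Spearman correlation of the deviation from the gene mean with exon length was -0.17, -0.06 and 0.20 in controls 1 to 3 and -0.36, 0.01 and 0.34 in mutants 1 to 3. Genes are not independent replicates, and between the groups the log2 fold change had a correlation with exon length of 0.0066. The first principal component took 43.6% of the variance and put mutants 2 and 3 (18.8 and 35.7) apart from mutant 1 (-18.5) and the controls (-19.5 to -5.42).

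**Figure D1:**
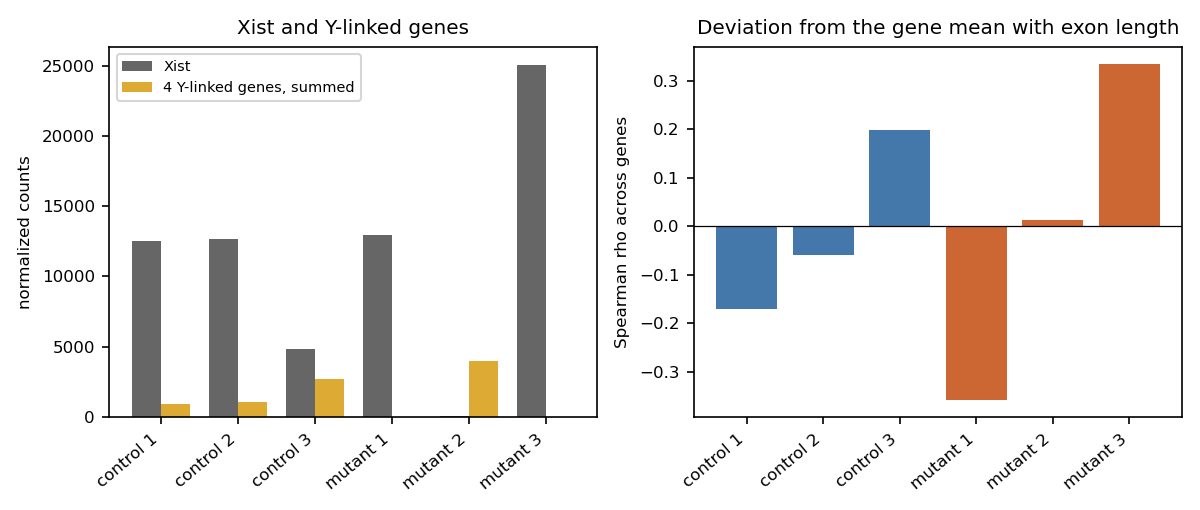
Left, normalized counts (linear axis) of Xist and of 4 Y-linked genes summed (Ddx3y, Eif2s3y, Kdm5d, Uty) in each of the 6 Sox9Cre libraries. Right, Spearman correlation across 13418 genes between exon length and the deviation of log2 normalized counts from the gene mean over the 6 libraries, 1 bar per library (controls blue, mutants orange); controls hold both kinds of sex-linked RNA and each mutant 1 kind, and the correlation runs from -0.36 in mutant 1 to 0.34 in mutant 3.

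Wnt5a itself differed little in whole lungs. The controls had 473, 453 and 426 normalized counts and the mutants 442, 362 and 448, so that the groups overlapped and only mutant 2 lay below all controls. The log2 fold change (mutant over control, on log2 of the normalized count plus 1, as everywhere below) was -0.12 ± 0.10 (SE) with a 95% interval of -0.34 to 0.11. Values are per gene and not per exon and come from whole lungs, so this level does not measure how much of the epithelial Wnt5a was lost, and recombination in other cells was not tested. Sox9, which carries the Cre in both groups, had 1346, 1549 and 1143 normalized counts in the controls and 1158, 1156 and 1155 in the mutants. The log2 fold change of Sox9 was -0.21 ± 0.10 (limma unadjusted p = 0.0673), and the nearly equal mutants lay within the range of the controls.

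Of 14293 genes, 0 had a Benjamini-Hochberg adjusted p under 0.05 in limma (0%), and the smallest adjusted p was 0.576. At an unadjusted p under 0.05 there were 557 genes (3.9% of those tested), of which 155 (1.08%) were higher and 402 (2.81%) lower in the mutants. The edgeR quasi-likelihood test on the reads called 0 genes after adjustment and 531 at an unadjusted p under 0.05. DESeq2 called 9 genes (0.063%), all of them lower in the mutants, namely Alad, Cd36, Cxcl13, Pde1c, Gm8909, Pln, Kcnj5, Mylk3 and Timp3. All 3 mutants lay above all 3 controls at 632 genes (4.42%) and below them at 623 genes (4.36%). With 3 against 3 libraries an exact permutation test of a single gene cannot give a p below 0.1. If no gene differed, a share of about 0.05 would pass the unadjusted threshold. The same share would be free of overlap in each direction. The shares of 3.9%, 4.42% and 4.36% lie below this, so these counts are not by themselves an excess. In what follows, "called" means past the unadjusted threshold in limma, and a share of called genes is to be read against these percentages.

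The genes with the smallest p among those lower in the mutants came from several tissues. Leading genes in both directions were picked among those whose groups did not overlap, so that separation follows from the choice. Alad, the heme synthesis enzyme delta-aminolevulinate dehydratase, had 1204, 1181 and 1314 normalized counts in the controls and 879, 928 and 853 in the mutants, 1.39-fold lower (log2 fold change -0.47 ± 0.06, unadjusted p = 5.37e-05, adjusted p = 0.576). The spread within each group was small against this difference, and no mutant reached the lowest control. Cd36, a fatty acid transporter of capillaries and macrophages, went from 236, 199 and 274 to 135, 107 and 124 (log2 fold change -0.95 ± 0.14). Pde1c, a calcium-dependent phosphodiesterase, went from 72.4, 71.7 and 75.8 to 34.2, 28.2 and 23.6 (-1.34 ± 0.19). Each of these was lower in every mutant than in any control.

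Cxcl13, a chemokine that draws lymphoid cells, had 392, 223 and 185 normalized counts in the controls and 124, 89.5 and 96.4 in the mutants (log2 fold change -1.30 ± 0.26). Ildr2, an immunoglobulin-like receptor, had 209, 174 and 241 against 129.8, 126 and 100.5 (-0.80 ± 0.15). Control 1 held the highest value of Cxcl13 and control 3 that of Ildr2, and no mutant reached the lowest control in either. Hoxc5, a positional gene of the neck and upper trunk, had 94.2, 64.7 and 54.9 against 23.4, 36.2 and 26.7 (-1.27 ± 0.26). Timp3, an inhibitor of metalloproteinases made by the lung, had 2321, 1836 and 2146 against 1573, 1412 and 1666 (-0.43 ± 0.09).

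**Figure D2:**
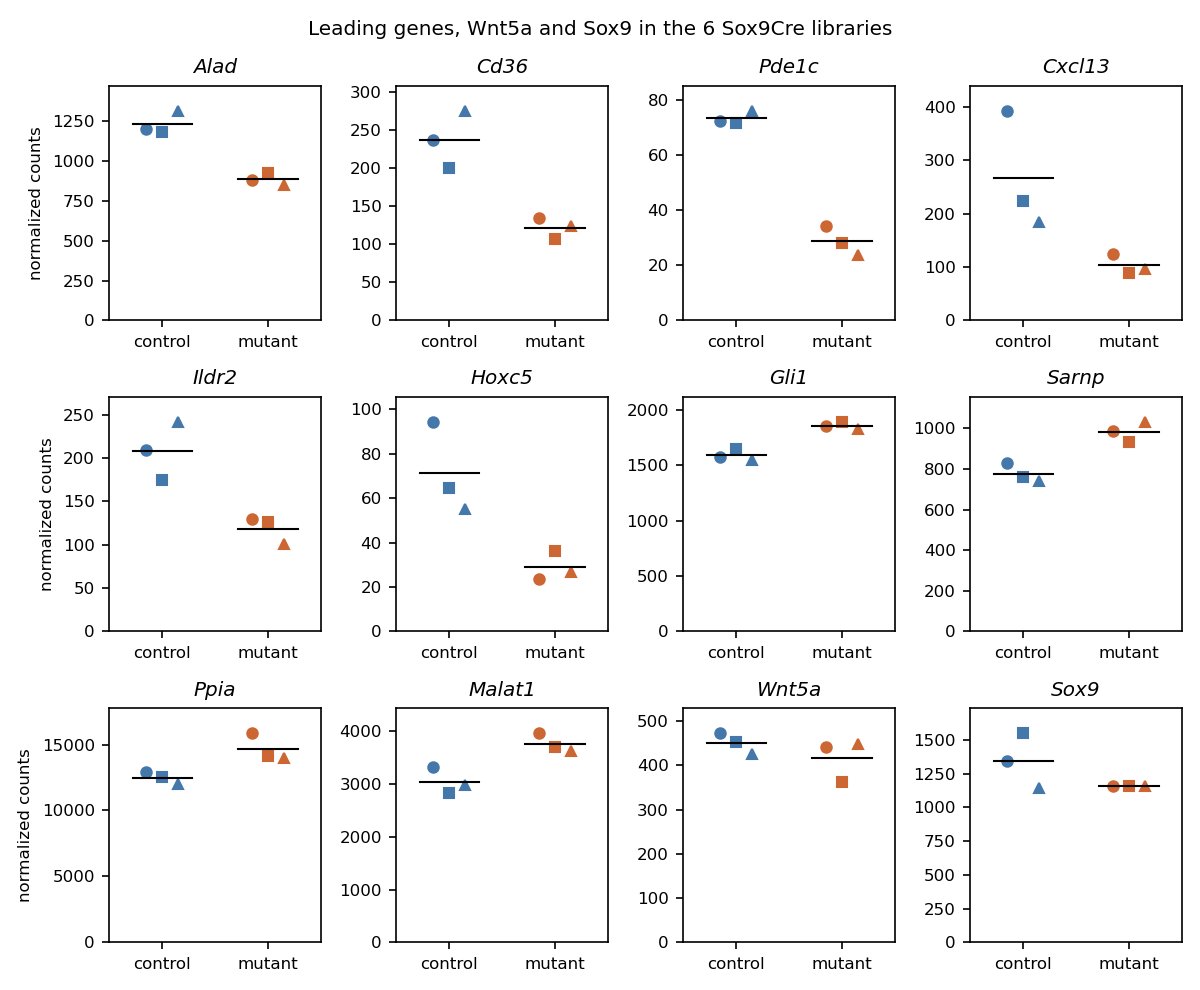
Normalized counts (linear axes from 0) of 10 leading genes, Wnt5a and Sox9 in the 3 controls (blue) and 3 mutants (orange), with circles, squares and triangles for replicates 1, 2 and 3 and a line at the mean of each group. The 10 leading genes were picked among those whose groups do not overlap, so their separation follows from the choice. Wnt5a and Sox9 were not picked this way, and their groups overlap.

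Most of the leading genes on the higher side had smaller log2 fold changes. Gli1, the transcription factor that is itself a target of hedgehog signaling, had 1581, 1645 and 1551 normalized counts in the controls and 1860.1, 1892 and 1831 in the mutants, 1.17-fold higher (log2 fold change 0.23 ± 0.05, unadjusted p = 0.00144, adjusted p = 1). Other readouts of the pathway overlapped between the groups. Ptch1, its receptor and target, had 2477, 2556 and 2762 against 1949.9, 2514 and 3362, and Hhip, the hedgehog-binding feedback inhibitor, had 1784, 1814 and 1930.3 against 1401, 1875 and 2237. In both, mutant 1 was the lowest of the 6 libraries and mutant 3 the highest, and the log2 fold changes were -0.03 ± 0.17 and -0.03 ± 0.14. Shh, the ligand, had a log2 fold change of 0.01 ± 0.06.

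Sarnp, which takes part in the export of messenger RNA, had 827, 761 and 738 against 987, 931 and 1030.2 normalized counts (log2 fold change 0.34 ± 0.07). Ppia, the cyclophilin A prolyl isomerase, had 12929, 12505 and 11989.8 against 15866, 14145 and 14016 (0.23 ± 0.06). Malat1, an abundant nuclear non-coding RNA, had 3320.3, 2839.6 and 2979 against 3966, 3712 and 3625 (0.31 ± 0.07). Psmb5, a catalytic proteasome subunit (0.26 ± 0.06), and Pop1, a protein of RNase P and RNase MRP (0.48 ± 0.11), were also above all controls in all mutants. Susd5, at 15 to 19.9 in the controls and 29.2 to 71.8 in the mutants, had the steepest log2 fold change among the 12 leading genes of this direction, 1.37 ± 0.33.

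Few of the genes that WNT5A acts through were called. Of 17 Wnt5a receptors and co-receptors tested, 1 was called lower and 1 higher, with a median log2 fold change of -0.03 beside 0.0013 over all genes. Fzd6, a Frizzled of planar polarity in skin and hair, had 321, 308 and 314 against 264, 269 and 268 normalized counts (-0.24 ± 0.07, unadjusted p = 0.0111). Fzd9, at 11.9 to 18.0 against 20.1 to 38.1, was the member called higher (0.86 ± 0.32). Of 30 planar cell polarity genes, 0 were called in limma and 0 had groups that did not overlap, and the smallest p was 0.124. Their log2 fold changes ran from -0.63 to 0.09, and the lowest was that of Celsr3, a core polarity cadherin, with 45.6, 21.9 and 25.9 against 35.1, 13.1 and 14.4 normalized counts and a 95% interval of -1.60 to 0.35. Vangl2, a core polarity protein, had 367, 319.6 and 354 against 296, 314 and 355 normalized counts, and Vangl1 had 458, 478 and 473 against 409, 502 and 508. With array weights, which called 3303 of all 14293 genes, 1 polarity gene was called higher and 3 lower. Without mutant 3, 2 were called lower, and 1 without control 3, without mutant 1 or with the replicate block. Of 17 genes that follow beta-catenin signaling, 0 were called, though 2 were called higher with array weights and 1 without mutant 1. Axin2, the most used readout among them, had a log2 fold change of 0.00 ± 0.07 with a 95% interval of -0.16 to 0.17. Among 17 other Wnt ligands and secreted antagonists, Sfrp1, an antagonist made by the mesenchyme, was the member called, at 3153, 2691 and 2723 against 2306, 2495 and 2144 (-0.30 ± 0.08). The median of these 17 genes was -0.21, 13 of them were negative, and 6 were called lower without mutant 1, 6 with array weights and 7 with the replicate number as a block.

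Genes shared by the whole lung epithelium were close to their control levels, and 2 proximal airway genes were called. Of 27 genes of the whole lung epithelium 0 were called, the log2 fold changes lay between -0.11 and 0.10, and their summed level was 25341 to 26752 normalized counts in the controls and 25079.9 to 26614 in the mutants. With array weights 1 of the 27 was called higher and 5 lower, beside 3303 called over all genes. Without mutant 1, 1 was called higher and 2 lower, beside 1491 over all genes. Cdh1, the epithelial cadherin, had 2035, 2017 and 2009 against 1900.2, 1849 and 2066. Of 16 genes of the distal tip, Gata6, a transcription factor of endoderm that is also expressed in lung mesenchyme and heart, was the member called, at 1834, 1737 and 1833 against 1567, 1692 and 1444 (-0.20 ± 0.07). Sftpc, the surfactant protein of the tips, had a log2 fold change of 0.13 ± 0.10. Of 10 proximal airway genes, Muc1, a membrane mucin (-0.36 ± 0.13), and Insm1, a transcription factor of neuroendocrine cells (-0.63 ± 0.24), were lower in all mutants, beside 2.81% over all genes. That count was 0 without control 2 or without mutant 3 and 4 without mutant 2. Of 37 genes of Fgf10, Shh and Bmp signaling, 2 were called, both higher: Gli1, and the fibroblast growth factor receptor Fgfr3 with 730.5, 804 and 716 against 817, 846 and 911 (0.19 ± 0.07).

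In the mesenchyme, 2 of 24 genes were called higher and 3 lower. Foxf2, a transcription factor of lung mesenchyme (0.16 ± 0.07), and Gli1 were the higher members, and the lower ones included Dcn and Col1a1 of the matrix. The smooth muscle list had 3 of 17 members called, all lower, of which Pln is also a heart gene. Des, the intermediate filament desmin, had 1005, 1169.9 and 1286 against 1042, 926 and 927, and the myosin light chain Myl9 had 2105, 2477 and 2982 against 2131, 2189.7 and 1705. In both the groups overlapped, and Acta2, smooth muscle actin, had a log2 fold change of -0.03 ± 0.07. In cartilage, which also expresses Sox9, 3 of 15 genes were called, all higher. Of the 15, 10 had a positive and 5 a negative log2 fold change, with a median of 0.11. Acan, the aggregating proteoglycan of cartilage, had 14.9, 8.96 and 4.99 against 24.4, 17.1 and 27.7 normalized counts (1.27 ± 0.42). Col9a1 had 239, 170.3 and 128 against 377, 227 and 250.1 (0.68 ± 0.25), and Col9a2 had 475, 393 and 413 against 584, 472 and 477 (0.26 ± 0.11). Mutant 1 was the highest library in both collagen IX chains, and only Acan had groups that did not overlap. These calls rested on single libraries: 1 cartilage gene was called higher without control 2, and 1 higher and 1 lower without control 3 or without mutant 1. With array weights 3 were called higher and 2 lower, with a median of -0.03.

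Among adhesion and matrix genes the interstitial matrix stood out, with 9 of 40 members called lower, 0 called higher and a median log2 fold change of -0.09. Fibronectin (Fn1), the matrix ligand of several integrins, had 12984, 11994 and 14368 against 10351, 11417 and 10913 normalized counts (-0.26 ± 0.07, unadjusted p = 0.006). Tnxb, tenascin X, had 73.3, 50.8 and 79.8 against 38.1, 39.2 and 32.8 (-0.85 ± 0.21). Fmod, the collagen-binding proteoglycan fibromodulin, had 4549, 4814 and 4394 against 4227, 3997 and 4010.2 (-0.17 ± 0.05). These 3 genes were lower in every mutant than in any control. Postn, periostin, had 3894, 2423 and 2801 against 2492, 1699.9 and 1837 (-0.59 ± 0.19), and Dcn, the proteoglycan decorin, had 4183, 2614 and 3283 against 2654, 2363 and 1783 (-0.56 ± 0.18). Col1a1, the main chain of collagen I, had 37409, 28040.2 and 30660.3 against 26392, 27755 and 22185 (-0.33 ± 0.12). Control 1 was the highest library in Postn, Dcn and Col1a1. Without control 1, 4 of the 40 matrix genes were called lower and 1 higher, and without the other libraries in turn 7 to 14 were called lower. The list was chosen after the study had named the matrix in these samples, so its direction is not independent evidence.

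The laminins and other basement membrane genes had 1 of 28 members called lower, nidogen 2 (Nid2), with 3923, 3439.9 and 3818 against 3110.3, 3417 and 3086 (-0.22 ± 0.07). Lama1, the laminin alpha chain of the early epithelium, had a log2 fold change of 0.12 ± 0.08, and Lamb1 one of -0.06 ± 0.05. Of 51 focal adhesion genes, 4 were called, all lower: the parvin Parvb (961, 966 and 945 against 831, 845 and 793), Ptk2b, the calcium-dependent relative of focal adhesion kinase (123, 90.6 and 135 against 63.4, 79.5 and 44.1), Pdlim5 and Myl9. Without mutant 1, 6 were called higher and 5 lower, and 2 were called higher with array weights or with the length trend removed. Ptk2, focal adhesion kinase itself, had 2189, 2326 and 2246 against 2055, 2365 and 2377 normalized counts, a log2 fold change of 0.00 ± 0.07 with a 95% interval of -0.15 to 0.16. RNA levels say nothing of the phosphorylated protein. Of 53 actin cytoskeleton genes 2 were called lower, Ezr and Tpm1, and of 24 integrins 1, the leukocyte integrin Itgal.

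**Figure D3:**
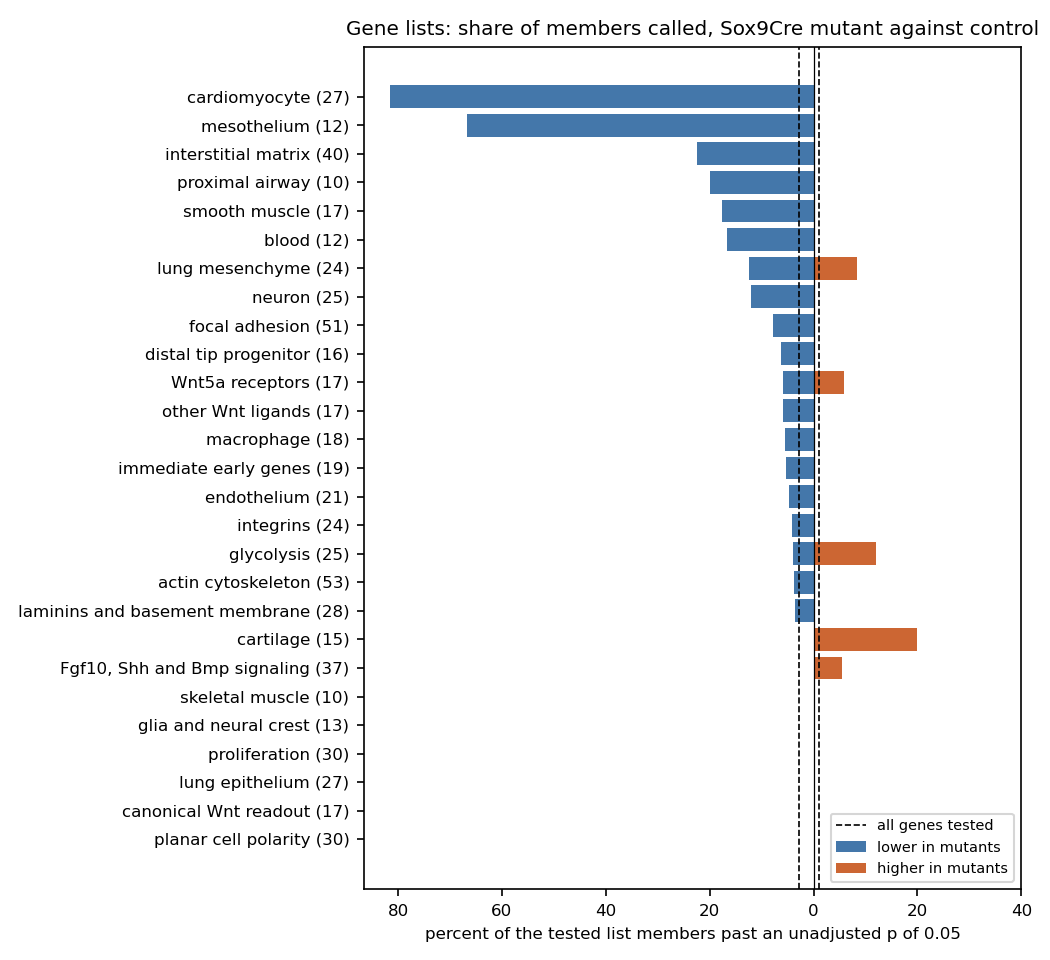
Percent of the tested members of each gene list (number in brackets, lists of at least 10 members) past an unadjusted p of 0.05 in limma, to the left when lower and to the right when higher in the mutants, with dashed lines at the shares over all 14293 genes, 2.81% and 1.08%. The cardiomyocyte and mesothelium lists lie farthest from these lines.

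Most mesothelial genes were lower in the mutants at the unadjusted threshold. Of 12 members tested, 8 were called, all lower, 6 had groups that did not overlap, and the median log2 fold change was -0.42. Wt1, the transcription factor of mesothelium, had 817, 704 and 735 normalized counts in the controls and 421, 649 and 538 in the mutants, 1.42-fold lower (-0.51 ± 0.14, unadjusted p = 0.00695). Upk3b, a uroplakin of the mesothelial surface, had 1709, 1443 and 1681 against 1268, 1430.3 and 1105 (-0.35 ± 0.10). Gpm6a, a membrane glycoprotein of mesothelium and neurons, had 589, 435 and 564 against 341, 380.2 and 397 (-0.50 ± 0.12), and Bnc1, basonuclin, had 293, 251 and 334 against 206, 239 and 173 (-0.51 ± 0.15). Mutant 2 came nearest to the controls in Wt1, Upk3b and Bnc1. Of members that other cells express strongly, Krt19, a keratin of the airway epithelium too, had 587, 606 and 581 against 642, 577 and 579, and Podxl, also made by endothelium, had 3612, 3614 and 4042 against 3252, 3881 and 4141. Leaving out each library in turn left 4 to 8 of the 12 genes called lower, with 4 when control 1 and 5 when control 3 or mutant 3 was left out. With array weights 6 were called lower with a median of -0.21, and with total-read scaling 6. The summed level of the list was 11917, 10718 and 12039 normalized counts in the controls and 9684, 10824 and 9988 in the mutants. Mutant 2 thus lay above control 2 in the sum. In whole-lung RNA, fewer cells of a type and less RNA per cell cannot be told apart, here and in every list below.

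Apart from the sex-linked genes, the cardiomyocyte list had the lowest median log2 fold change of the 30 lists, and its genes also varied widely among libraries of a group. Of 27 cardiomyocyte genes tested, 22 were called, all lower, with a median log2 fold change of -2.0. Such genes reach a lung sample with the sleeve of myocardium around the pulmonary veins or with heart tissue left at dissection. Their summed level was 7394, 11302 and 24679 normalized counts in the controls and 8195, 3761 and 1311 in the mutants, so mutant 1 held more than control 1. Myh6, the atrial myosin heavy chain, had 1249.8, 2104 and 4966 against 1032, 516 and 56.4. Nppa, the atrial natriuretic peptide, had 49.6, 476 and 1614 against 54.7, 8.05 and 5.13, and Myl7, the atrial myosin light chain, had 632, 1022 and 1725 against 631, 317 and 63.6. Control 3 was the highest library in each and mutant 1 the highest mutant, at the level of control 1 in Nppa and Myl7, and 9 of the 27 genes had groups that did not overlap. Pln, phospholamban, which restrains the calcium pump of the sarcoplasmic reticulum, had 22.8, 40.8 and 95.8 against 8.78, 3.02 and 3.08 (-3.08 ± 0.57, DESeq2 adjusted p = 0.00168), and Ldb3, a Z-disc protein, had 146, 194 and 396 against 107, 61.4 and 14.4 (-2.26 ± 0.66). Without control 3, 4 of the 27 genes were called, and without each of the other libraries 12 to 26. Kcnj5 and Mylk3, an atrial potassium channel and the cardiac myosin light chain kinase, which DESeq2 called, had their highest value in control 3 as well.

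The promoters of 4 of these genes are shown as examples, 3 that hold a motif match and Nppa, the list member with the lowest log2 fold change, which holds none, chosen after the matches were seen. Myl3, a myosin light chain of slow muscle and ventricle, had 17.8, 27.9 and 57.9 normalized counts in the controls and 6.83, 5.03 and 7.18 in the mutants. Each is 300 bases of GRCm38.p6 from RefSeq, 250 before the start of transcription and 50 after it, 5′ to 3′ on the strand of the gene. Capitals mark matches to 3 motifs searched on both strands. These were AGATAA, a single form of the site bound by GATA factors, the MEF2 motif, and the CArG box bound by serum response factor. Other forms of the GATA site were not searched.
Pln (chr10:53337436-53337735, plus strand): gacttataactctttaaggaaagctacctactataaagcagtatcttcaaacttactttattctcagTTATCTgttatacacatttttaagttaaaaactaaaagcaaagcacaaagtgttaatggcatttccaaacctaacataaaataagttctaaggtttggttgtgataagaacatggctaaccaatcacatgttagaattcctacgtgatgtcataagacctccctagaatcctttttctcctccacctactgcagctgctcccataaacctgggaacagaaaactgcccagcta
Myl3 (chr9:110763428-110763727, plus strand): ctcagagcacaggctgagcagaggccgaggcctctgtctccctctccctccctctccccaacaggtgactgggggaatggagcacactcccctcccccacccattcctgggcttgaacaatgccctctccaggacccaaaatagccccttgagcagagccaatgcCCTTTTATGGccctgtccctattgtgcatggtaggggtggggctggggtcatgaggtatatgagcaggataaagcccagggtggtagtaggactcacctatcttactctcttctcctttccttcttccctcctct
Ldb3 (chr14:34588632-34588931, minus strand): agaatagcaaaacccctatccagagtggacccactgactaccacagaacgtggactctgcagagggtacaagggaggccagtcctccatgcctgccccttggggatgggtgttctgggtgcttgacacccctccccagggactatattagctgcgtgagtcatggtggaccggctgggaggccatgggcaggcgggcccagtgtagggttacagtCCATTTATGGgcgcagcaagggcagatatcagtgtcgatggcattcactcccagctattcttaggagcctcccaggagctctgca
Nppa (chr4:148000472-148000771, plus strand): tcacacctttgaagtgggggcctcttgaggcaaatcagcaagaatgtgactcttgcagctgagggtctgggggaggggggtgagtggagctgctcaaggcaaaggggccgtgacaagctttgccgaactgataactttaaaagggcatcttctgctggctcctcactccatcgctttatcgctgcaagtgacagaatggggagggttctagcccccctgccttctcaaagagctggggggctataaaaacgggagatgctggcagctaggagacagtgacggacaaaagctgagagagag
Pln held 1 match to AGATAA, read on the opposite strand, and Myl3 and Ldb3 held 1 CArG box each. Nppa held 0 matches to the 3 motifs in this window. Promoters of 24 of the 27 cardiomyocyte genes were in the table, and among them AGATAA occurred in 4, the CArG box in 4 and the MEF2 motif in 2. Over the promoters of 10495 tested genes the shares were 6.31%, 1.34% and 0.438%. A match is a description of these letters and not a bound site.

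**Figure D4:**
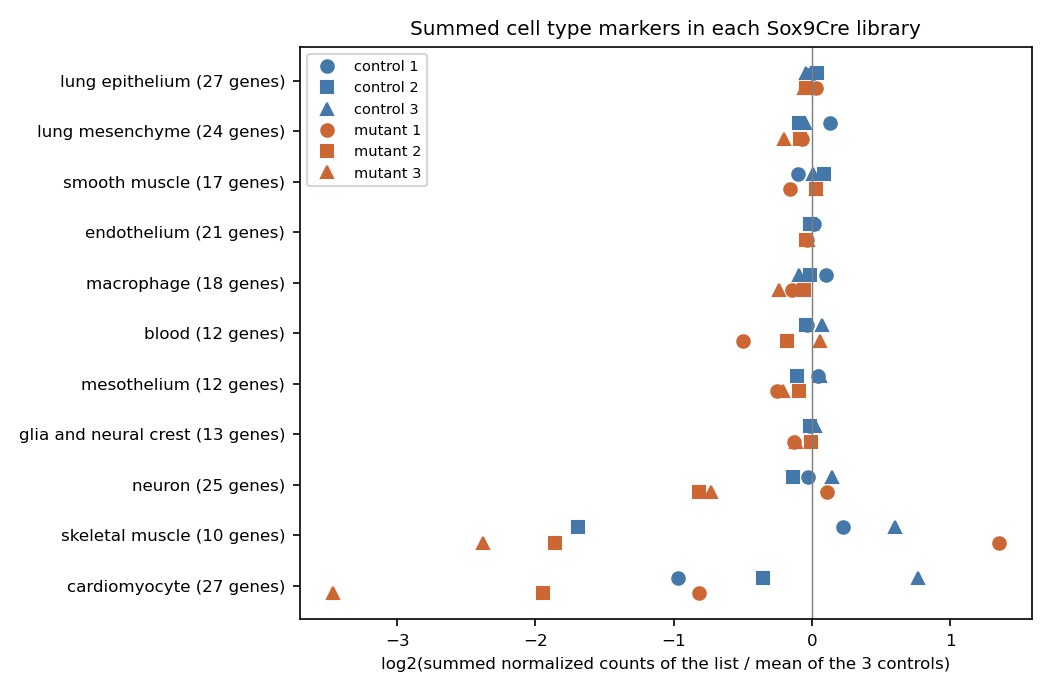
Summed normalized counts of the tested markers of 11 cell types in each Sox9Cre library, as log2 of the ratio to the mean of the 3 controls (controls blue, mutants orange; circles, squares and triangles for replicates 1, 2 and 3; 1 point per library). Epithelial, mesenchymal and endothelial sums lie close to 0 in all libraries, while cardiomyocyte and skeletal muscle sums spread widely within both groups and neuron sums within the mutants.

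Other tissues next to the lung also varied from library to library, though not all in the same pattern. The neuron list had 3 of 25 members called lower, Ina and Hand2 among them, and its summed level was 5360.0, 4970.2 and 6060.2 normalized counts in the controls and 5886, 3109 and 3294 in the mutants. Mutant 1 matched the controls, and mutants 2 and 3 lay below them. Ina, a neuronal intermediate filament, had 92.2, 109.5 and 137 against 124, 18.1 and 25.6. Slc17a6, the glutamate transporter of sensory neurons, had 6.94, 57.7 and 61.8 against 82.0, 0 and 0. Without mutant 1, 19 of the 25 neuron genes were called lower, and with each of the other libraries left out 1 to 4. The skeletal muscle list, which had 0 of 10 members called, had summed levels of 1054, 279 and 1369 against 2298, 248 and 173 normalized counts, and its embryonic myosin Myh3 had 286, 4.98 and 354 against 770.0, 21.1 and 6.15. Without mutant 1, 5 of the 10 skeletal muscle genes were called lower, and with array weights 4. Of 4 genes of thymus, thyroid and parathyroid 0 were called, and of 4 genes of liver and gut 1. Alb, the liver albumin, had 139, 24.9 and 74.8 against 1.95, 23.1 and 19.5. The part that attached heart, nerve or muscle played in the other differences between the groups was not tested.

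Of 12 red cell genes 2 were called lower and 10 had a negative log2 fold change, with a median of -0.33. The called genes were the beta globin Beta-s (7975, 5841 and 8900.3 against 4139.9, 3609 and 6501) and Alas2, which makes the first heme precursor (502, 471 and 609.5 against 331, 326 and 487), and in both mutant 3 lay above a control. The count was 0 without control 3 or without mutant 2 and 6 without mutant 3. Of 18 macrophage genes 1 was called, the receptor Csf1r, with 755, 670.1 and 622 against 607, 578 and 484, and all 18 had a negative log2 fold change, with a median of -0.14. Of 21 endothelial genes 1 was called lower, the sialomucin Emcn (-0.14 ± 0.06), and 0 of 13 genes of glia and neural crest were called. Without mutant 1, 3 of these 13 genes were called lower, and with array weights 8. Of 19 immediate early genes, Fos was the member called, at 35.7, 27.9 and 31.9 against 12.7, 16.1 and 15.4 (-1.06 ± 0.24).

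Genes of metabolism and the cell cycle had median log2 fold changes above 0. Of 25 genes of glycolysis and the response to low oxygen, 3 were called higher and 1 lower, with a median log2 fold change of 0.11. With a library left out the number called higher ran from 1 without control 3 to 6 without mutant 3, and the median from 0.05 to 0.15. Pgam1, phosphoglycerate mutase, had 2478, 2615 and 2492 against 2852, 2804 and 2786 normalized counts (0.15 ± 0.05), and Pgk1, phosphoglycerate kinase, had 4091, 4265 and 4006 against 5078, 4443 and 4556 (0.19 ± 0.06). Ldha, lactate dehydrogenase A, had 11181, 12243 and 11174 against 14816, 12144 and 12533, with mutant 1 far above the rest. The member called lower, Adm, encodes the secreted peptide adrenomedullin and not an enzyme of glycolysis. Of 30 proliferation genes, 0 were called in limma and 26 had a positive log2 fold change, with a median of 0.04 and a highest value of 0.10. In 6 of the 30 all mutants lay above all controls, beside 4.42% over all genes. Without mutant 1, 5 were called higher, with array weights 6 higher, and without mutant 3, 1 lower.

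By position, chromosome 14, which carries Wnt5a (28504750 to 28527448, plus strand, GRCm38), had the largest share of called genes among the autosomes and X, 30 of 466 (6.44%), beside 2.98% to 5.25% on the others. The mutants were homozygous and the controls heterozygous for the floxed allele. Whether alleles of neighboring genes differed with it was not tested. Within 10 Mb of Wnt5a, 7 of 109 tested genes were called (6.42%), no larger a share than over the whole chromosome, among them Gdf10, Nid2, and the heart genes Ldb3 and Tnnc1. Gdf10, a ligand of the TGF-beta family, had 618, 431 and 419 normalized counts in the controls and 308, 317 and 337 in the mutants (-0.59 ± 0.14). On chromosome 17, where 30 of 643 tested genes (4.67%) were called, 4 neighbors in the major histocompatibility complex between 36029773 and 36168537 were called and lower in every mutant. They were the 4 genes tested in that window, but its ends were set by them after their values were seen. Gm8909, a class I histocompatibility gene model, had 389, 372 and 403 against 287, 261 and 229.6 (-0.59 ± 0.10), and its neighbor 2410017I17Rik had 254, 279.8 and 275 against 186, 177 and 193 (-0.54 ± 0.09). H2-T23 had 65.4, 40.8 and 44.9 against 29.3, 21.1 and 21.5, and H2-T10 had 15.9, 19.9 and 20 against 7.81, 8.05 and 10.3. Class I genes of this region are close copies of each other, so the split of reads among them is uncertain. The haplotypes of the libraries on chromosome 17 were not tested either.

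The epithelial deletion was then set against the mesenchymal deletion by Dermo1Cre, in which the difference between the log2 fold changes of both experiments was tested for each of 14124 genes tested in both. The Cre line and the stage differ together between the experiments and cannot be told apart. In limma 0 genes passed an adjusted p of 0.05 (0%), and 749 (5.3%) passed an unadjusted p of 0.05, of which 436 (3.09%) had the lower log2 fold change in the Sox9Cre experiment and 313 (2.22%) the higher. edgeR called 0 genes after adjustment and 708 at an unadjusted p under 0.05. Gm8909 had the smallest adjusted p, 0.124. It was 431, 432 and 481 normalized counts in the Dermo1Cre controls and 557, 507 and 581 in the Dermo1Cre mutants, so it was lower in all mutants of the epithelial experiment and higher in all mutants of the mesenchymal one, a difference of -0.88 ± 0.12. The neighboring 2410017I17Rik had the same pattern (-0.74 ± 0.13). Pde1c, lower in the Sox9Cre mutants, had a log2 fold change of 0.52 in the Dermo1Cre mutants (difference -1.86 ± 0.30).

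Of 25 neuron genes, 20 had a difference past the unadjusted threshold, all with the lower value in the Sox9Cre experiment, where the median log2 fold change was -0.64 beside 1.29 with Dermo1Cre. The summed neuron level was 2942 to 3625 normalized counts in the Dermo1Cre controls and 4407, 7140.3 and 7487 in the mutants. Outside the list, Kif5c, a kinesin heavy chain of neurons, had log2 fold changes of -0.41 and 1.43 (difference -1.84 ± 0.32). Of 25 glycolysis genes, 10 differed, all in the other direction, with medians of 0.11 and -0.19, Pgam1 among them (0.30 ± 0.08). The summed glycolysis level overlapped between the groups in both experiments. It was 70052, 74471 and 69374 normalized counts in the Sox9Cre controls and 85627, 74491 and 74289 in the Sox9Cre mutants. In the Dermo1Cre experiment it was 64229, 70268.5 and 68495 against 58585, 67427 and 53754. Of the mesothelial genes tested in both, 3 of 11 differed, Gpm6a, Wt1 and Aldh1a2, with log2 fold changes of -0.50, -0.51 and -0.18 with Sox9Cre and 0.13, 0.20 and 0.20 with Dermo1Cre. Of the 24 cardiomyocyte genes tested in both, 0 passed that threshold, and their medians were -1.99 and -1.20. The Dermo1Cre libraries varied in heart muscle as well, with summed levels of 1700, 9088 and 27503 in the controls and 4061, 6040 and 1232 in the mutants. Twist2, a mesenchymal transcription factor under whose promoter Dermo1Cre is driven, had a log2 fold change of 0.01 with Sox9Cre and -0.72 with Dermo1Cre (difference 0.73 ± 0.18). Acta2 had -0.03 and -0.52 (difference 0.49 ± 0.20).

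**Figure D5:**
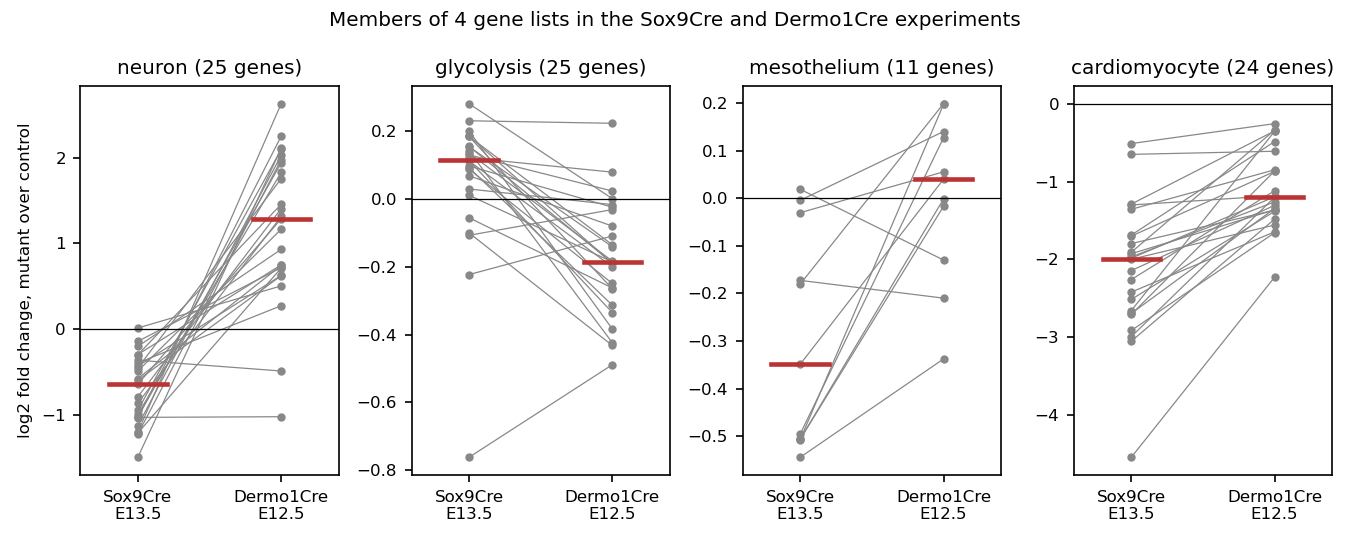
Log2 fold change of mutant over control (linear axis of log2 values, different in each panel) for the members of 4 lists tested in both experiments, with a line joining each gene from the Sox9Cre experiment at E13.5 to the Dermo1Cre experiment at E12.5 and red bars at the medians. The neuron medians are -0.64 and 1.29, the glycolysis medians 0.11 and -0.19, and the cardiomyocyte medians lie below 0 in both.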

How the data were processed

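RNA from whole embryonic lungs was sequenced, and per the submitters' processing notes reads were trimmed with Trim Galore, aligned to mm10 with HISAT2, counted per gene with featureCounts and normalized with DESeq2, with no versions given. The authors deposited signal values, namely gene counts divided by the size factor of each library. The deposited mean, fold change and p columns were not used, nor was the table of the Vangl1/2 experiment. Whole reads were recovered in all 12 libraries used (largest deviation from a whole number 3.7e-05 reads).

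Genes that reached 10 normalized counts in 3 or more libraries were fitted with limma 3.58.1 (trend, R 4.3.3) on log2 of the value plus 1, with Benjamini-Hochberg adjustment. The Sox9Cre minus Dermo1Cre difference was a contrast of 4 group means. Alternatives were edgeR 4.0.16 and DESeq2 1.42.0 on the reads, TMM and total-read scaling, other filters and pseudocounts, array weights, a replicate block and each library left out. Removal of the exon-length trend (GENCODE M21) and list counts without each library were added after seeing the data. The fits were tested on simulated data, with genes drawn independently and changes placed only in well expressed genes. That test does not cover the differences shared by many genes between these libraries.

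Because nothing states that the libraries came from separate litters, p-values measure only the spread between these libraries. Any 2 libraries of a group differed by more than sampling noise (chi-square per degree of freedom at least 3.73). The members and the 30 lists were chosen with earlier results of these data known. Genes were named as those the study discusses, the 12 with the smallest p in each direction whose groups did not overlap, up to 4 per list by p, the 6 with the largest loadings on the first component at each end, and the 5 leading differences in each direction; some of these are not reported here. H2-T23, H2-T10, Ptch1, Hhip, Shh, Kcnj5, Timp3, Mylk3, Gdf10, Tnnc1, Myh6, Myl7, Krt19, Podxl and Aldh1a2 were named after their values were seen. Promoters came from RefSeq (GRCm38.p6).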

Additional observations from a re-analysis of the deposited data

Results flagged for a closer look

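Of 58 genes named above that were searched, 3 had groups that did not overlap in either experiment and lay in opposite directions in the Sox9Cre and the Dermo1Cre mutants. Gm8909 and 2410017I17Rik had been named for non-overlapping Sox9Cre groups and for a small p of the difference. Their pattern therefore follows largely from that choice. The difference between the log2 fold changes was -0.88 for Gm8909 and -0.74 for 2410017I17Rik, the neighboring genes of the major histocompatibility complex. It was 0.27 for Foxf2, which had 1265, 1143 and 1149 normalized counts in the Dermo1Cre controls and 1033, 1128 and 1139 in the Dermo1Cre mutants. In limma the unadjusted p of the difference was 8.8e-06, 6.12e-05 and 0.0105 in that order, and the Benjamini-Hochberg adjusted p was 0.124, 0.233 and 0.738. Over all 14124 genes tested in both experiments, 63 (0.446%) had this pattern, 30 of them lower with Sox9Cre and 33 higher. That share is no larger than expected if mutants and controls were interchangeable in each experiment.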

How the results depend on the processing

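The count of 0 genes at an adjusted p under 0.05 became 9 with DESeq2 and 352 with array weights, where mutant 2 had a weight of 8.07 and the other libraries 0.305 to 1.19. It ranged from 0 to 13 with a library left out, 13 without mutant 1 and 4 without mutant 2. The 557 genes at an unadjusted p under 0.05 became 325 with DESeq2 and 3303 with array weights, and ranged from 315 to 1491 with a library left out, 315 without control 3, 366 without control 1 and 1491 without mutant 1. The other scalings, filters and pseudocounts gave 423 to 741, and removal of the length trend 627. The share of higher genes was 27.8%, 25.3% to 31.8% under the scalings, 20.9% with DESeq2, 45.7% with array weights (1508 higher, 1795 lower) and 42.7% without mutant 1 (637 higher, 854 lower). The Sox9Cre minus Dermo1Cre difference, with 0 genes, ranged from 0 to 60 with a library left out, 60 without Sox9Cre mutant 1 and 1 without Dermo1Cre control 3.

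The deviations of same-numbered libraries correlated at 0.0535, 0.132 and -0.12. With 3 libraries per group, these correlations cannot show whether same-numbered libraries shared a litter or a batch. With the replicate block in limma, 0 genes passed the adjusted threshold, and the smallest adjusted p was 0.0558, beside 0.576 without the block. With it 761 genes passed the unadjusted threshold, and 0 genes differed between the experiments after adjustment. Not every library correlated best with its own number. The neuron count of 3 became 11 with the block and 8 with the length trend removed. The 3 lower smooth muscle genes became 1 without control 2, control 3 or mutant 3. The 3 lower mesenchymal genes became 0 without control 1. The 2 higher genes of Fgf10, Shh and Bmp signaling became 1 without control 3 and 5 without mutant 1, and the 1 lower macrophage gene became 0 without control 1 and 3 without control 3.

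Median log2 fold changes without a library ranged from -2.84 to -1.11 for cardiomyocyte genes and from -1.68 to 0.12 for skeletal muscle genes. Of the 58 genes whose log2 fold change was recomputed, 51 kept their direction under every alternative. The other 7 had values near 0. Many of the 58 were chosen because their groups did not overlap. Leaving out a library cannot reverse such a gene, so the count of 51 does not measure stability. The log2 fold change of Ptch1 was 0.0042 with DESeq2, 0.0028 with edgeR and -0.229 to 0.164 with a library left out. The log2 fold change of Hhip was 0.0239 with array weights and -0.184 to 0.153 with a library left out. The log2 fold change of Shh ranged from -0.0291 to 0.0411 with a library left out. For Axin2 it was -0.0053 without the length trend, -0.0013 with total-read scaling and -0.059 to 0.0683 with a library left out. For Acta2 it was 0.0489 with array weights and -0.0787 to 0.0289 with a library left out. The log2 fold change of Ptk2 was -0.000589 with total-read scaling and -0.0312 to 0.0737 with a library left out. For Twist2 it was -0.064 with array weights and -0.048 to 0.0952 with a library left out. The cause of these shifts was not tested. With whole lungs as input, an epithelial change in a gene that other cells also express is not measured separately.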

Other observations

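The first principal component of the 6 libraries had its 6 most negative loadings at genes of striated muscle and neurons, namely Slc17a6, Nppa, Myh3, Trdn, Cox6a2 and Actn2. Actn2, the alpha-actinin of muscle Z-discs, had 202, 238 and 594 normalized counts in the controls and 304, 58.3 and 7.18 in the mutants. Trdn, triadin of the sarcoplasmic reticulum, had 32.7, 59.7 and 94.8 against 37.1, 8.05 and 0. In both genes mutant 1 lay within the range of the controls and mutants 2 and 3 lay below it. At the other end, 3 of the 6 genes, Xaf1, Rsad2 and Rtp4, are interferon-induced. Rsad2, viperin, had 9.91, 9.96 and 13.0 against 7.81, 13.1 and 33.8, and Rtp4 had 32.7, 30.9 and 11.0 against 21.5, 25.1 and 61.5, so that mutant 3 was the highest library of both, with overlapping groups.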
